A study of Mus musculus with 4 samples.

Results

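The pentose phosphate pathway genes described here are the 8 mouse genes *G6pdx*, *Pgls*, *Pgd*, *Rpia*, *Rpe*, *Tkt*, *Taldo1* and *H6pd*, which were chosen by name as the enzymes of the oxidative and non-oxidative arms of the pathway. All 8 were among the 39179 genes listed in the count data, and all 8 were among the 11483 genes that passed the filter on low counts. The RNA-seq data comprise 4 polyA libraries, with 2 from parental B16F1 control cells and 2 from TRCs, numbered 1 and 3 in each group. B16F1 is an established mouse melanoma cell line, the controls are this line kept on rigid dishes in 2D, and the tumor repopulating cells (TRCs) are the cells of the same line that grew from single cells into spheroids in 3D fibrin gels of 90 Pa stiffness and were isolated on day 5. The growth in a soft gel and the selection of the cells that survive in it come together in this design and cannot be told apart. The sources do not say whether the libraries of a group came from separate cultures, so p-values measure only the spread between these libraries, which may be technical.

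The pentose phosphate pathway takes glucose 6-phosphate out of glycolysis. Its oxidative arm makes NADPH, which cells use for lipid synthesis and to keep glutathione and thioredoxin reduced, and ends in ribulose 5-phosphate. Its non-oxidative arm turns pentose phosphates into ribose 5-phosphate for nucleotides, or back into the glycolytic intermediates fructose 6-phosphate and glyceraldehyde 3-phosphate by reversible reactions. *H6pd* encodes a separate enzyme in the lumen of the endoplasmic reticulum (ER) that carries out the first steps there.

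The libraries held between 35948295 and 43511554 counts on genes, and single members had between 1025 and 19388 counts per library, so that counting error was at most 3.12% of a value. The spread between libraries, not depth, therefore limited the comparisons. Levels are given as CPM, counts scaled to the size of the library with edgeR's TMM method, or as RPKM, the same values per kilobase of exon, where levels of different genes are compared. Paired values of a group always stand in the order replicate 1, replicate 3. The comparison of TRCs with controls used the exact test of edgeR, with p-values adjusted over all genes by the Benjamini-Hochberg method (FDR), and a gene was called at an FDR under 0.05. Standard errors (SE) of log2 fold changes and 95% intervals come from DESeq2. No value of a single gene can pass by permutation alone, since the smallest two-sided p of an exact permutation test of 2 against 2 libraries is 0.333. Genes of the melanocyte lineage identified the cells, with all 7 markers between 46.2 and 11154 CPM in every library. Their summed level was between 15711 and 18915 CPM in the controls and between 23969 and 26669 CPM in the TRCs, and the part of this difference in the results was not tested. Of the other markers checked, 4 of 5 leukocyte markers and 2 of 3 endothelial markers had no count in any library. Taken list by list, the summed level of the leukocyte, endothelial, fibroblast and epithelial markers was at most 4.66 CPM in any library.

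Of the 8 pentose phosphate pathway genes, 1 was lower in TRCs at an FDR under 0.05 and 0 were higher in edgeR's exact test, while 15.9% of all genes tested were called in either direction and 7.05% were called lower. The gene was *Pgd*, which encodes 6-phosphogluconate dehydrogenase, and its level in TRCs was 0.605 times that in control cells. At an unadjusted p under 0.05, 2 members were found, *Pgd* and *G6pdx*, against 28.0% of all genes tested. The log2 fold changes of the members ranged from −0.72 to 0.16, with 4 above and 4 below 0, and their median was 0.016 where the median of all genes tested was 0.0034. Both TRC libraries lay below both controls for *Pgd*, *G6pdx* and *Taldo1*, which is 3 of 8 members where 30.4% of all genes tested had this order, and the groups overlapped for the other 5. In bulk RNA, fewer cells that express a gene and less of its RNA per cell cannot be told apart.

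**Figure D1:**
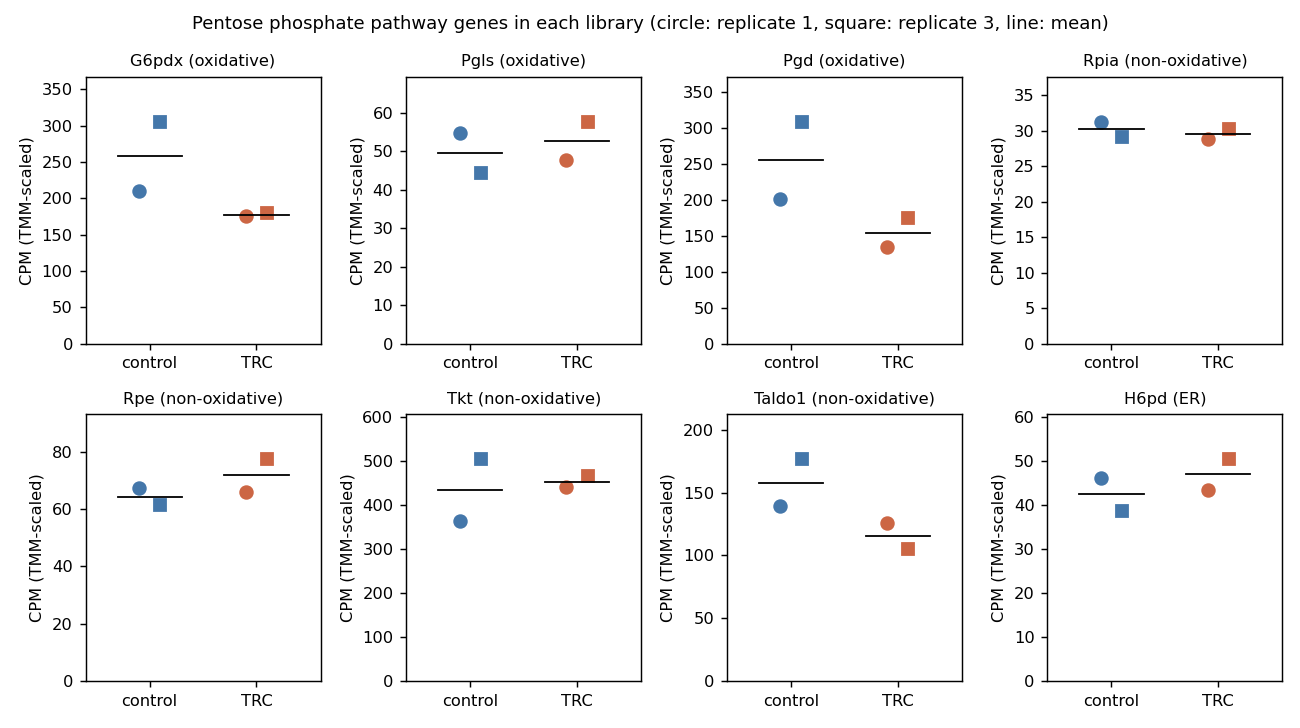
Level of each pentose phosphate pathway gene (y axis, TMM-scaled CPM, starting at 0) in the 2 control and 2 TRC libraries, with circles for replicate 1, squares for replicate 3 and a line at the group mean. The TRC libraries lie below both controls for *G6pdx*, *Pgd* and *Taldo1*, and the 2 controls stand apart from each other in *G6pdx*, *Pgd* and *Tkt*.

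The sequences around the transcription start of the 2 NADPH-making enzymes *G6pdx* and *Pgd* are shown because these members had the largest differences between the groups and lay lower in TRCs together. Each window holds 250 bases before and 50 after a start site from RefSeq in build GRCm38.p6, read 5′ to 3′ along the strand of the gene. All 8 members were matched by symbol, with 9 windows in all because *Pgd* has 2 starts. Capitals mark TGACNNNGC, the core of the antioxidant response element bound by NRF2 with small MAF proteins, and ACGTG, a core of the hypoxia response element, searched on both strands with no overlap between the matches shown.
*G6pdx*, chrX:74428831-74429130, minus strand: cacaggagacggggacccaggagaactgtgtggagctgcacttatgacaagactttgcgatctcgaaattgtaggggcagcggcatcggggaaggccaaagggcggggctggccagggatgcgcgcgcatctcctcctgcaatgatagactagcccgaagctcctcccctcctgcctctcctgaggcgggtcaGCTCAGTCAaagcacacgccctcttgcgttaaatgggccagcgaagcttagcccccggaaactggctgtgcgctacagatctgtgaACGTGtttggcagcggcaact
*Pgd*, outer start, chr4:149166656-149166955, minus strand: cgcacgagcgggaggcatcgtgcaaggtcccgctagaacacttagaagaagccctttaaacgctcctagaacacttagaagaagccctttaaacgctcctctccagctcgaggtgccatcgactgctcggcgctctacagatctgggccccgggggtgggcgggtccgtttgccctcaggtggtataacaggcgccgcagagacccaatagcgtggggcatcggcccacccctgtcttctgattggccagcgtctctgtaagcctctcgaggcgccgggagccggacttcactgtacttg
*Pgd*, inner start, chr4:149166033-149166332, minus strand: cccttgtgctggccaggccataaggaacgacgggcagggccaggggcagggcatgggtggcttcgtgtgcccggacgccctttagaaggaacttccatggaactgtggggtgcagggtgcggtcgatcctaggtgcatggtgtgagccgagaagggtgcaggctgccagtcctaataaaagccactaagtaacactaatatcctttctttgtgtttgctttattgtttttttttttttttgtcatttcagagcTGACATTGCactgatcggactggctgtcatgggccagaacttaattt
The *G6pdx* window held both motifs, with the antioxidant core on the opposite strand at base 194 of the window and ACGTG at base 280. The ACGTG match lies past the start site and so in transcribed sequence. In the GENCODE annotation used for gene positions, *G6pdx* begins at 74429194, so the whole window lies within the annotated gene. The antioxidant core is therefore before the RefSeq start only, and which *G6pdx* start is used was not tested. The inner *Pgd* window held TGACNNNGC at base 254, just past the start site, so this match lies in transcribed sequence and not before the start. Whether the inner start is used in these cells was not tested. The outer window held neither motif. Over the 9 member windows, 2 held TGACNNNGC and 1 held ACGTG, and over all 32851 windows of the same length the shares were 12.4% and 19.6%. A match is a description of the letters only, and binding was not measured.

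*G6pdx* (ENSMUSG00000031400, GRCm38 chromosome X from 74409483 to 74429194, minus strand) encodes glucose-6-phosphate dehydrogenase, the committed step of the oxidative arm and its first source of NADPH. The controls held 210 and 306 CPM of it, against 175 and 180 CPM in TRCs. The TRC libraries were close to each other and both below the lower control, but the 2 controls differed from each other by more than that control differed from the TRCs. The log2 fold change was −0.54 (SE 0.24, FDR = 0.125 in edgeR's exact test), with a 95% interval from 0.496-fold to 0.955-fold, so the decrease did not pass the adjustment over all genes. Without control replicate 1 the log2 fold change was −0.79 (FDR = 0.0241), and without control replicate 3 it was −0.24 (FDR = 0.726).

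*Pgls* (ENSMUSG00000031807, chromosome 8 from 71592176 to 71601092, plus strand) encodes 6-phosphogluconolactonase, which opens the lactone that *G6pdx* makes. Controls gave 54.7 and 44.3 CPM, whereas TRCs gave 47.7 and 57.7 CPM, so the groups overlapped. The log2 fold change was 0.090 (SE 0.24, FDR = 0.852), with a 95% interval from 0.774-fold to 1.47-fold.

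*Pgd* (ENSMUSG00000028961, chromosome 4 from 149149991 to 149166771, minus strand) encodes 6-phosphogluconate dehydrogenase, the second step that makes NADPH, which releases carbon dioxide and leaves ribulose 5-phosphate. It stood at 201 and 309 CPM in the controls, against 134 and 175 CPM in TRCs. Both TRC libraries were below both controls, and in each group replicate 3 was the higher one. *Pgd* fell, with a mean of 255 ± 76.4 CPM in controls and 154 ± 28.6 CPM in TRCs (SD, n = 2 each). Its log2 fold change was −0.72 (SE 0.27, FDR = 0.0451 in edgeR's exact test), with a 95% interval from 0.420-fold to 0.873-fold. The FDR was close to the threshold and was 0.103 in edgeR's quasi-likelihood test, 0.0527 without the filter on low counts and 0.0429 in DESeq2's Wald test. When single libraries were left out, the log2 fold change of *Pgd* was −0.38 without control replicate 3 (FDR = 0.531), −0.56 without TRC replicate 1 (FDR = 0.392), −0.93 without TRC replicate 3 (FDR = 0.0826) and −1.002 without control replicate 1 (FDR = 0.00495).

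The non-oxidative arm begins with 2 enzymes that both act on ribulose 5-phosphate. *Rpia* (ENSMUSG00000053604, chromosome 6 from 70765720 to 70792232, minus strand) encodes the isomerase that makes ribose 5-phosphate. The controls held 31.3 and 29.0 CPM of it, against 28.9 and 30.2 CPM in TRCs. These 4 values lay closer together than those of any other member, and the log2 fold change was −0.029 (SE 0.22, FDR = 0.959). The 95% interval ran from 0.723-fold to 1.33-fold. *Rpe* (ENSMUSG00000026005, chromosome 1 from 66700831 to 66719805, plus strand) encodes the epimerase that makes xylulose 5-phosphate. Controls gave 67.3 and 61.5 CPM, whereas TRCs gave 66.1 and 77.6 CPM. The groups overlapped, with a log2 fold change of 0.16 (SE 0.21, FDR = 0.707) and a 95% interval from 0.836-fold to 1.49-fold.

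*Tkt* and *Taldo1* encode the carbon-transferring enzymes that link pentose phosphates to glycolysis, and their levels did not move in parallel. *Tkt* (ENSMUSG00000021957, chromosome 14 from 30548359 to 30574720, plus strand) encodes transketolase, and it stood at 364 and 506 CPM in the controls, against 441 and 466 CPM in TRCs. Both TRC values lay between the 2 controls. The log2 fold change was 0.061 (SE 0.23, FDR = 0.906), with a 95% interval from 0.765-fold to 1.42-fold. *Taldo1* (ENSMUSG00000025503, chromosome 7 from 141392199 to 141402968, plus strand) encodes transaldolase, and the controls held 139 and 177 CPM of it, against 126 and 105 CPM in TRCs. Both TRC libraries were below both controls, but the log2 fold change of −0.45 (SE 0.23) did not pass the test (FDR = 0.201). Its 95% interval ran from 0.537-fold to 0.994-fold. The difference between the changes of the 2 genes was not tested.

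*H6pd* (ENSMUSG00000028980, chromosome 4 from 149979475 to 150009023, minus strand) encodes the hexose-6-phosphate dehydrogenase of the ER lumen, which supplies NADPH to reductases there. Controls gave 46.2 and 38.7 CPM, whereas TRCs gave 43.4 and 50.4 CPM. The groups overlapped, with a log2 fold change of 0.14 (SE 0.23, FDR = 0.746) and a 95% interval from 0.811-fold to 1.51-fold.

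The 2 control libraries differed in several members by as much as the groups did. Control replicate 3 was above control replicate 1 by 0.62 on the log2 scale in *Pgd*, 0.54 in *G6pdx*, 0.47 in *Tkt* and 0.35 in *Taldo1*. It was below replicate 1 in the remaining 4 members, with log2 differences of −0.30 in *Pgls*, −0.25 in *H6pd*, −0.13 in *Rpe* and −0.11 in *Rpia*. The SD of this log2 difference over all genes tested was 0.45, and the absolute differences of *Pgd* and *G6pdx* were larger than those of 86.3% and 82.4% of genes. Between TRC replicates 3 and 1 the largest log2 difference was 0.38, again in *Pgd*, while *Taldo1* had −0.26 and *G6pdx* 0.037.

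**Figure D2:**
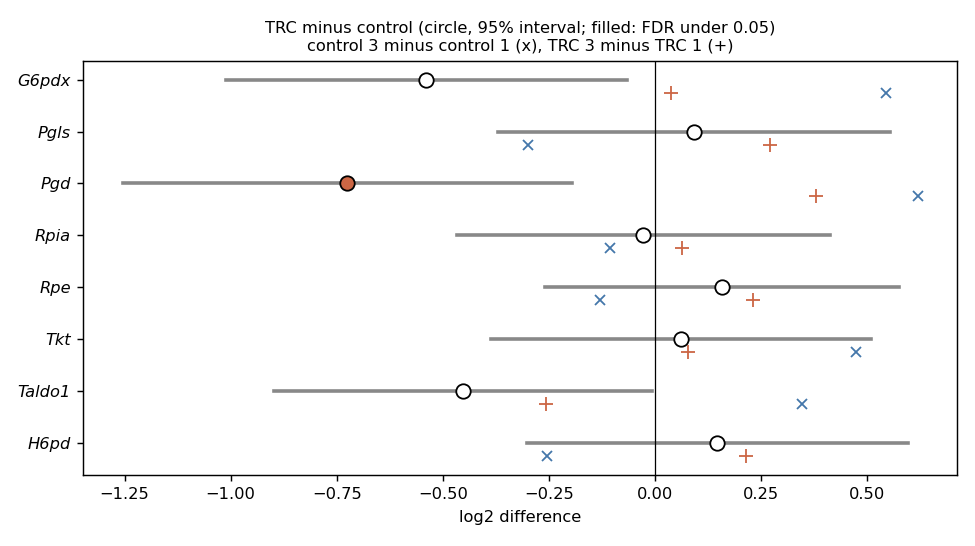
Log2 difference (x axis) of each pentose phosphate pathway gene between TRCs and control cells, as circles with 95% intervals from DESeq2 and filled where the FDR of edgeR's exact test was under 0.05, beside the difference of control replicate 3 from control replicate 1 (x) and of TRC replicate 3 from TRC replicate 1 (+). The filled circle is *Pgd* at −0.72, and the x marks of *Pgd* and *G6pdx*, at 0.62 and 0.54, lie about as far from 0 as their circles.

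Scaled by exon length, the members spanned more than a factor of 10 in level, and the lowest 3 members were the same, in the same order, in both groups. In control cells *G6pdx* had 83.7 ± 22.1 RPKM (SD, n = 2), *Taldo1* 72.8 ± 12.3, *Tkt* 59.1 ± 13.6 and *Pgd* 39.6 ± 11.9 RPKM. *G6pdx* and *Taldo1*, and *Taldo1* and *Tkt*, overlapped between the libraries, whereas *Tkt*, at 49.5 and 68.8 RPKM, and *Pgd*, at 31.2 and 48.0 RPKM, did not overlap, although their means ± SD did. Below *Pgd*, and outside its spread, came *Rpe* with 20.7 ± 1.32 RPKM (SD, n = 2), *Pgls* with 13.1 ± 1.95, *H6pd* with 8.10 ± 1.02 and *Rpia* with 5.63 ± 0.295 RPKM, each outside the spread of the next. In TRCs the leading members were *Tkt* with 61.7 ± 2.37 RPKM (SD, n = 2), *G6pdx* with 57.6 ± 1.04 and *Taldo1* with 53.2 ± 6.69 RPKM. *Tkt* lay just above *G6pdx* in both libraries, and *Taldo1* overlapped *G6pdx*. *Pgd* followed with 24.0 ± 4.44 RPKM (SD, n = 2), which overlapped *Rpe* with 23.1 ± 2.61, and the lower end kept its order, with *Pgls* at 14.0 ± 1.88, *H6pd* at 8.96 ± 0.949 and *Rpia* at 5.52 ± 0.177 RPKM. Among all genes tested with a length, *G6pdx* stood at percentile 95.8 in control cells and percentile 93.3 in TRCs, and *Rpia* at percentiles 41.5 and 40.5. Per kilobase of the longest transcript in place of all exons, *Tkt* led in both groups, followed by *Taldo1* and *G6pdx*, so the order of these 3 depends on the length used.

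**Figure D3:**
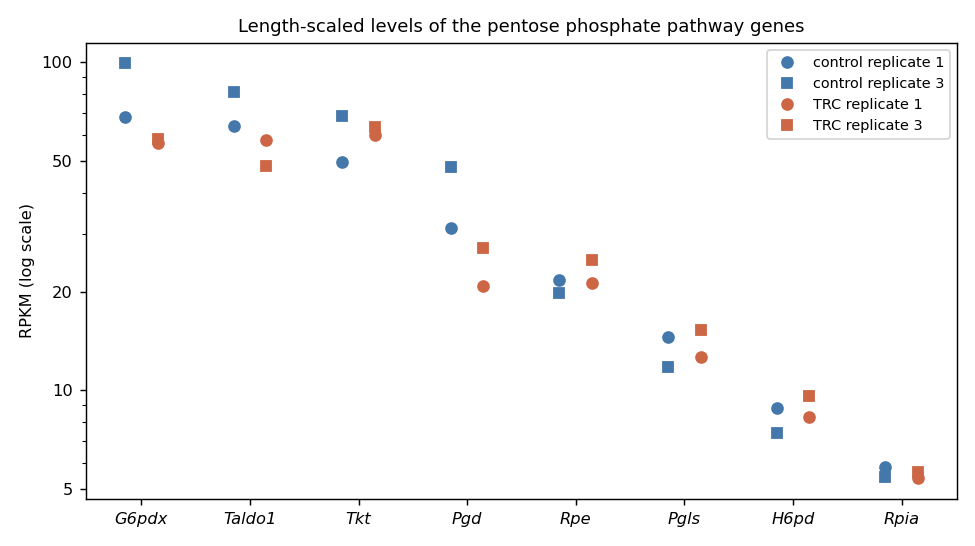
Length-scaled level (y axis, RPKM over all annotated exons, log scale) of each pentose phosphate pathway gene in every library, ordered by the mean of the controls. Levels fall from *G6pdx*, *Taldo1* and *Tkt* to *Rpia* at about 5.63 RPKM in control cells, and the 4 libraries of *Rpia* nearly coincide.

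The balance between the arms differed between the groups as a description, without a test. The 3 oxidative members summed to 114 and 159 RPKM in control replicates 1 and 3, and to 90.3 and 101 RPKM in TRC replicates 1 and 3. The 4 non-oxidative members summed to 141 and 175 RPKM in the controls and to 145 and 142 RPKM in the TRCs. The ratio of the oxidative to the non-oxidative sum was therefore 0.807 and 0.906 in the controls, and 0.625 and 0.708 in the TRCs, without overlap. Among single genes tested, 30.4% had both TRC libraries below both controls. Of the mean oxidative sum of 136 RPKM in controls, *G6pdx*, which was not called, made up 83.7 RPKM and *Pgd*, which was called, 39.6 RPKM. The ratio of *G6pdx* to *Tkt* in RPKM was 1.38 and 1.44 in the controls, and 0.947 and 0.920 in the TRCs. Between the 2 controls this ratio differed less than either gene did alone. The ratio of *H6pd* to *G6pdx* was 0.130 and 0.0744 in the controls, and 0.146 and 0.165 in the TRCs. Within the oxidative arm, the ratio of *Pgd* to *G6pdx* overlapped, with 0.458 and 0.483 in the controls, and 0.366 and 0.465 in the TRCs. These ratios between genes were chosen after their values were seen.

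Paralogs of the members were under the detectable level in every library. *G6pd2*, an intronless copy of *G6pdx*, was counted 2 times and 1 time in the controls and 1 time and 0 times in TRCs. Its transcript matched the longest *G6pdx* transcript with 93.2% identity over an aligned length of 2332 bases. The transketolase-like gene *Tktl1* had 1 count in control replicate 1 and 0 elsewhere, and *Tktl2* had 0 counts in all 4 libraries. All of these lie under 3 counts, the smallest number taken as detectable, which covers counting error only. Exons of *Pgls* share 776 bases, 20.6% of their length, with *Fam129c* on the same strand. *G6pdx* and *Rpe* share exon bases on the opposite strand with *Ikbkg* (418 bases) and *Kansl1l* (558 bases), and the strand setting of the counting is not given in the sources used here, so reads there cannot be assigned with certainty. A stretch of the longest *Rpia* transcript of at most 395 bases matched transcripts of 44 other genes at 95% identity or more, and alignments that were not unique were not counted. No such match over at least 100 bases was found for *Pgd*, *Pgls*, *Tkt*, *Taldo1* or *H6pd*.

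By the shape of its level over the 4 libraries, *G6pdx* was most like *Itpa*, *Mpp6* and *Ctdp1*. The measure was the root mean square difference of log2 CPM plus 0.5 after centring on each gene's mean, which was 0.0074, 0.015 and 0.017 for these genes. *Itpa* encodes inosine triphosphatase, and it stood at 46.9 and 69.1 CPM in the controls, against 39.7 and 40.4 CPM in TRCs. With 4 libraries in 2 groups many genes come close by this measure. Among the members, *Taldo1* ranked 539 and *Pgd* 913 of 11482 genes in likeness to *G6pdx*, with differences of 0.129 and 0.156, and *H6pd* was the least alike, with 0.438 and rank 6807.

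The glycolytic genes whose products meet the pathway moved in the other direction from *Pgd*. All 8 genes of this list rose in TRCs at an FDR under 0.05, where 8.81% of all genes tested were called higher, and their median log2 fold change was 1.94. *Gpi1* encodes glucose-6-phosphate isomerase, which competes with *G6pdx* for glucose 6-phosphate, and the controls held 435 and 581 CPM of it, against 1584 and 2482 CPM in TRCs. Both TRC libraries were far above both controls, at log2 fold change 2.0 (SE 0.27, FDR = 3.67e-10). The ratio of *Gpi1* to *G6pdx* in RPKM was 0.990 and 0.908 in the controls, and 4.32 and 6.60 in the TRCs. *Pfkl*, a phosphofructokinase subunit, and *Aldoc*, a fructose-bisphosphate aldolase, had log2 fold changes of 2.82 (FDR = 1.19e-10) and 4.21 (FDR = 2.32e-36). The smallest change in the list was that of *Pfkm*, with 0.87 (FDR = 0.00267). In all 8 glycolytic genes TRC replicate 3 exceeded replicate 1, with a median log2 difference of 0.88 and a value of 0.34 in *Pfkm*. The same difference was 0.38 in *Pgd*, 0.27 in *Pgls*, 0.23 in *Rpe* and 0.21 in *H6pd*. It was 0.078 in *Tkt*, 0.065 in *Rpia*, 0.037 in *G6pdx* and −0.26 in *Taldo1*.

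**Figure D4:**
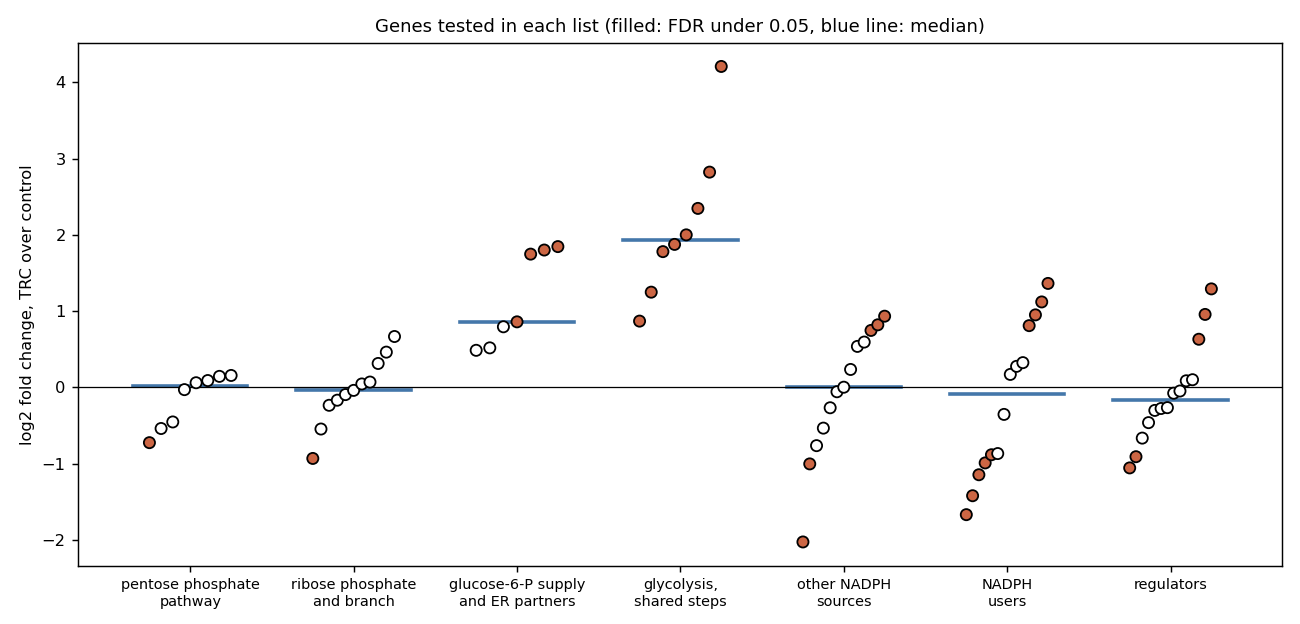
Log2 fold change of TRCs over control cells (y axis) for every gene tested in the pentose phosphate pathway and in 6 lists of related genes, filled where the FDR of edgeR's exact test was under 0.05, with a blue line at the median. All 8 glycolytic genes lie above 0 and are filled, with a median of 1.94, while the pentose phosphate pathway genes lie between −0.72 and 0.16 with 1 filled.

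Of 11 genes that supply glucose 6-phosphate or work beside *H6pd* in the ER, 7 were tested, of which 4 rose and 0 fell in edgeR's exact test, where 8.81% of all genes tested were called higher and 7.05% lower, and 0 were lower at an unadjusted p under 0.05 or in the other tests run. Their median log2 fold change was 0.86. *Hk2*, a hexokinase that makes glucose 6-phosphate, stood at 78.7 and 86.9 CPM in the controls, against 172 and 405 CPM in TRCs, at log2 fold change 1.80 (SE 0.35, FDR = 9.55e-06). *Slc37a4*, which carries glucose 6-phosphate into the ER and so feeds *H6pd*, had 10.6 and 9.95 CPM in the controls, and 24.9 and 49.0 CPM in the TRCs. Its log2 fold change was 1.85 (SE 0.35, FDR = 9.44e-06). The related transporter gene *Slc37a1* changed by 1.75 on the log2 scale (SE 0.21, FDR = 7.04e-12), and the remaining gene that rose was *Hk1*, with 0.86 (FDR = 0.0299). The call of *Hk1* was lost without a filter, in the quasi-likelihood test, and without control replicate 1, control replicate 3 or TRC replicate 3, when 3 genes of the list were called. *Hsd11b1*, which encodes the ER reductase that takes NADPH from *H6pd*, had a log2 fold change of 0.52 (FDR = 0.476).

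Downstream of the pathway, 11 of 17 genes of ribose phosphate use and side branches were tested, of which 1 fell and 0 rose in edgeR's exact test, where 7.05% of all genes tested were called lower and 8.81% higher, with a median log2 fold change of −0.039. At an unadjusted p under 0.05, 2 were lower and 0 higher, and 0 were higher in the other tests run. The gene that fell was *Prpsap1*, which encodes a protein associated with phosphoribosyl pyrophosphate synthetase, the enzyme that activates ribose 5-phosphate for nucleotide synthesis. Controls gave 107 and 174 CPM, whereas TRCs gave 70.8 and 76.5 CPM, at log2 fold change −0.93 (SE 0.27, FDR = 0.00566). The call was lost without control replicate 3 (−0.54), without TRC replicate 1 (−0.89) and without TRC replicate 3 (−0.99). As in *G6pdx*, control replicate 3 was above replicate 1 and both TRC libraries were lower. The synthetase genes themselves did not pass the test, with log2 fold changes of −0.55 for *Prps1* (FDR = 0.123) and −0.17 for *Prps2* (FDR = 0.709). *Tigar*, whose product lowers fructose 2,6-bisphosphate and is known to favour the pathway, had −0.23 (FDR = 0.535).

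Other sources of NADPH were divided. Of 13 genes tested, 3 rose and 2 fell, against 8.81% and 7.05% of all genes tested, with a median log2 fold change of 0.0025. *Me1*, which encodes cytosolic malic enzyme, stood at 104 and 136 CPM in the controls, against 208 and 217 CPM in TRCs, at log2 fold change 0.82 (SE 0.22, FDR = 0.00685). Both TRC libraries were above both controls, and the call was lost without control replicate 1 and without either TRC library (log2 fold changes 0.64, 0.84 and 0.78). The others that rose were *Nadk2*, the mitochondrial NAD kinase, with 0.75 (FDR = 0.0314), and *Me2*, a mitochondrial malic enzyme, with 0.93 (FDR = 0.0451), in which control replicate 3, with 94.7 CPM, was above TRC replicate 1, with 93.1 CPM. Both calls were lost without a filter and in the quasi-likelihood test, and that of *Me2* also in DESeq2's Wald test (FDR = 0.0550). Without TRC replicate 3 the log2 fold changes were 0.47 for *Nadk2* (FDR = 0.459) and 0.24 for *Me2* (FDR = 0.756), and without control replicate 1 they were 0.73 (FDR = 0.106) and 0.66 (FDR = 0.289). Without control replicate 3 the call of *Nadk2* was lost too, at 0.76 (FDR = 0.146). The genes that fell belong to folate metabolism, *Mthfd1* with −1.003 (FDR = 0.00265) and the weakly expressed *Mthfd2l* with −2.03 (FDR = 0.00477). Without control replicate 3 both calls were lost, at −0.63 for *Mthfd1* (FDR = 0.128) and −1.73 for *Mthfd2l* (FDR = 0.0717). That of *Mthfd1* was also lost without TRC replicate 3, at −0.90, and that of *Mthfd2l* without TRC replicate 1, at −1.49. The call of *Mthfd2l* was lost in edgeR's quasi-likelihood test (FDR = 0.0627), and that of *Mthfd1* in this test with the replicate number as a block (FDR = 0.0687). *Nadk*, the cytosolic NAD kinase, had −0.53 (FDR = 0.0974).

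Among 14 genes whose products use NADPH, 4 rose and 5 fell, against 8.81% and 7.05% of all genes tested, with a median log2 fold change of −0.092. The balance of directions rested on single controls, with 1 higher and 6 lower without control replicate 1, and 4 higher and 1 lower without control replicate 3. The genes that rose included *Sqle* with 1.36 (FDR = 2.56e-06) and *Dhcr7* with 0.95 (FDR = 0.00316), which encode enzymes of sterol synthesis. The call of *Dhcr7* was lost without control replicate 1 (0.67, FDR = 0.0756) and without TRC replicate 3 (0.93, FDR = 0.0511). The genes that fell included a thioredoxin reductase and the glutathione reductase. *Txnrd1*, the cytosolic thioredoxin reductase, stood at 456 and 673 CPM in the controls, against 199 and 223 CPM in TRCs, at log2 fold change −1.42 (SE 0.24, FDR = 2.97e-06). *Gsr*, the glutathione reductase, had 81.0 and 124 CPM in the controls, and 55.6 and 55.4 CPM in the TRCs, at log2 fold change −0.88 (SE 0.26, FDR = 0.00634). In both genes the TRC libraries lay below the controls and control replicate 3 was the highest of the 4, as in *G6pdx* and *Pgd*. The call of *Gsr* was lost without control replicate 3 (log2 fold change −0.55) and without either TRC library (−0.90 and −0.89), and that of *Txnrd1* was kept in all 4 of these fits. *Blvrb* also fell, and so did *Txnrd2*, at 1.89 and 1.87 CPM in the controls and 0.674 and 0.505 CPM in the TRCs. Under the filter of 1 CPM in at least 3 samples *Txnrd2* was not tested, and 4 of 13 genes fell. *Txnrd3*, a further thioredoxin reductase gene, had 0.17 (FDR = 0.745).

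Of 15 genes listed as known or possible regulators of the pathway, 14 were tested. Of these, 3 rose and 2 fell, against 8.81% and 7.05% of all genes tested, with a median log2 fold change of −0.17. *Nfe2l2*, which encodes NRF2, a known activator of *G6pdx*, *Pgd*, *Tkt* and *Taldo1*, stood at 208 and 222 CPM in the controls, against 158 and 199 CPM in TRCs. Its log2 fold change was −0.27 (SE 0.21, FDR = 0.489), and that of its inhibitor gene *Keap1* was −0.28 (FDR = 0.497). *Mafg*, one of the small MAF partners of NRF2, fell, at log2 fold change −0.91 (SE 0.19, FDR = 0.00115). *Trp53*, whose product is known to bind and inhibit glucose-6-phosphate dehydrogenase, also fell, with −1.06 (FDR = 0.000241). The genes that rose were *Maf* with 1.29 (FDR = 9.62e-06), *Hif1a* with 0.96 (FDR = 0.00209) and *Sirt2*, a deacetylase known to act on glucose-6-phosphate dehydrogenase, with 0.63 (FDR = 0.0317). The call of *Sirt2* was lost in each of the 4 fits without a library (log2 fold changes from 0.57 to 0.68, FDR from 0.0612 to 0.247), without a filter (FDR = 0.0662) and in the quasi-likelihood test (FDR = 0.0517). Without TRC replicate 1 those of *Hif1a* (0.71, FDR = 0.126) and *Mafg* (−0.86, FDR = 0.0753) were lost as well. Enzyme activity, NADPH and metabolite flux were not measured.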

How the data were processed

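RNA from 2 parental B16F1 control and 2 TRC samples was sequenced. The authors used Trimmomatic 0.35 to trim the stranded single-end reads, Tophat2 2.1.0 to place them on GRCm38 and htseq-count to count them, whose mode and strand setting are not given in the sources used here. What the authors deposited for each library is a set of raw counts by Ensembl gene identifier. Totals that name no gene, 20.2% to 29.0% of the entries, were removed. Genes under 1 CPM in at least 3 samples were dropped, and TRCs were compared with controls by the exact test with TMM and common and tagwise dispersions in edgeR 4.0.16 under R 4.3.3. SE and intervals (1.96 SE) came from DESeq2 1.42.0. CPM used TMM-scaled totals over the genes tested. Symbols, positions and exon lengths came from GENCODE M21 (GRCm38), in which 37607 of 39179 identifiers were found. Near-identical transcripts were searched with BLAST+ 2.17.0. The scripts were tested on simulated data.

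The members and the 6 related lists were chosen with earlier results of these data known. Named genes are the 8 members, *G6pd2*, *Tktl1* and *Tktl2*, from each list up to 3 higher and 3 lower genes of smallest FDR, and the 3 genes nearest to *G6pdx* in pattern, and some genes that this rule names are not reported here. *Hk1*, *Pfkm*, *Hsd11b1*, *Prps1*, *Prps2*, *Tigar*, *Nadk*, *Txnrd2*, *Txnrd3*, *Blvrb*, *Nfe2l2*, *Keap1*, *Mthfd2*, *Aldh1l2* and *Fasn* were named after their values were seen. The ratios between genes were chosen after their values were seen. Alternatives were a filter of 1 CPM in at least 3 samples, no filter, DESeq2 size factors, library size only, the quasi-likelihood test of edgeR, also with the replicate number as a block, DESeq2's Wald test, and each library left out in turn, in which the lone library of a group is assumed to vary like the other group.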

Additional observations from a re-analysis of the deposited data

Results flagged for a closer look

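Alignments that were not unique, which no gene received, made up 18.3% of the entries in TRC replicate 1 and 25.2% in TRC replicate 3, both above the 15.2% and 17.1% of control replicates 1 and 3. Among the members, *Rpia* had the most matches to transcripts of other genes, over at most 395 of the 3644 bases of its longest transcript. Its levels of 28.9 and 30.2 CPM in the TRC libraries stood beside 31.3 and 29.0 CPM in the controls, and the part of these alignments in any member was not tested.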

How the results depend on the processing

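The call of *Pgd* depended on the processing. Its log2 fold change was −0.75 without a filter (FDR = 0.0527), −0.72 in the quasi-likelihood test (FDR = 0.103) and −0.70 in that test with a replicate block (FDR = 0.0582), and the number of members called was 0 in each of these 3 settings. The filter of 1 CPM in at least 3 samples, DESeq2 size factors, library size only and DESeq2's Wald test each called 1 member. With each library left out in turn, 0 to 2 members were called. The log2 fold changes then ranged from −1.002 to −0.38 for *Pgd*, from −0.79 to −0.24 for *G6pdx*, from −0.062 to 0.25 for *Pgls*, from −0.082 to 0.025 for *Rpia* and from −0.16 to 0.32 for *Tkt*. The signs of the last 3 therefore depend on single libraries. The cause was not tested.

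Over all genes the quasi-likelihood test called 1054 and, with the replicate block, 785 genes, against 1822, and leaving out libraries gave 773 to 1932. The ribose phosphate list had 0 calls in the quasi-likelihood test without and with the block, and 0 to 1 without single libraries. Other NADPH sources had 3 calls without a filter, 2 in the quasi-likelihood test, 2 with the block, and 1 to 4 without single libraries. NADPH users had 5 calls with the block and 3 to 7 without single libraries, and regulators 2 to 4. The glycolytic list had 6 to 8 calls and the supply list 3 to 4. Of the 23 genes that the naming rule took from the lists, none changed sign under any of the 11 alternatives, and 45 of their 253 values no longer passed the threshold. The lowest counts of calls came without TRC replicate 3 for NADPH sources (1), NADPH users (3) and glycolytic genes (6), and without TRC replicate 1 for regulators (2). Per kilobase of the longest transcript, the mean ratio of oxidative to non-oxidative sums was 0.653 in controls and 0.496 in TRCs, against 0.857 and 0.666. As a check of the pairing, libraries with the same number were compared by their deviation from the mean of the group, with a correlation of 0.0223 across 11483 genes, and the numbers were not taken to pair the samples. Depth limits genes of few counts such as *Mthfd2l*, *Txnrd2*, *G6pd2*, *Tktl1* and *Tktl2*.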

Other observations

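Some genes of NADPH metabolism, chosen after their values were seen, differed between the 2 control libraries in the other direction from *G6pdx* and *Pgd*. *Aldh1l2*, the mitochondrial formyltetrahydrofolate dehydrogenase, had 148 and 14.5 CPM in control replicates 1 and 3, and 59.9 and 103 CPM in TRC replicates 1 and 3. *Mthfd2*, a mitochondrial folate enzyme, had 471 and 245 CPM in the controls, and 162 and 259 CPM in the TRCs. *Fasn*, the fatty acid synthase and a large user of NADPH, followed *G6pdx* within the controls, with 470 and 931 CPM, and had 580 and 515 CPM in the TRCs. For these 3 genes the groups overlapped, and none passed the test, with FDR values from edgeR's exact test of 1.0 for *Aldh1l2*, 0.0929 for *Mthfd2* and 0.473 for *Fasn*.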
